A study of Mus musculus with 10 samples.

Results

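Smooth muscle, myofibroblast and pericyte genes were examined in whole fetal mouse lungs in which the epithelial driver Shh-Cre was used to delete the histone deacetylase Hdac3, and in control lungs. The set holds 34 genes chosen by name: 16 of the contractile apparatus, the transcriptional regulators Myocd and Srf, 3 hedgehog receptors and targets, 3 secreted proteins of myofibroblasts and 10 pericyte genes. Of these, 33 were matched to a probe set annotated to that gene alone, out of 17919 genes measured in all; Enpp2 had no such match and is not analysed here. By limma, 0 of the 33 were called between knockout and control lungs, against 3.12% of all genes. A log2 change below 0 was found in 26 (78.8%, against 48.0% of all genes), the lowest being -0.41. The calponin gene Cnn1 and the hedgehog-binding genes Hhip and Ptch1 fell under some of the settings tried, but not under the same blocks. With the replicate number as a block only Cnn1 was called (3.03%, against 4.72% of all genes). With sets of lungs as a block, described below, only Hhip and Ptch1 were called (6.06%, against 5.08% of all genes). Both shares lay near those of all genes. The tropomyosin gene Tpm1 was the 1 gene whose groups did not overlap (3.03%, against 5.11% of all genes).

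Smooth muscle surrounds the conducting airways and the larger vessels of the fetal lung, myofibroblasts lie at the tips of the forming septa, and pericytes ensheath the capillaries. Contractile genes of these cells are switched on by serum response factor, encoded by Srf, which binds CArG boxes in promoters and is driven by its coactivator myocardin. The airway epithelium secretes the ligand Sonic hedgehog, which binds the receptor Ptch1 on neighbouring mesenchyme and induces Gli1, Ptch1 and Hhip there, the last being a decoy that holds the ligand back. Pericytes are recruited to vessels by PDGF-B acting on the receptor encoded by Pdgfrb.

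Each of 10 embryos at E18.5 gave 1 array of whole-lung RNA, 5 labelled as Shh-Cre controls and 5 as Shh-Cre with both Hdac3 alleles floxed. All were on a background that the labels call C57BL/6 and 129X1,129S6. The embryos came from Hdac3 fl/fl mothers and Hdac3 fl/+ Shh-Cre fathers, so each carries at least 1 floxed allele. Which alleles the controls carry beyond that is not in their labels. By this cross, controls that carry Shh-Cre would be Hdac3 fl/+. Shh-Cre acts in the epithelium, so the muscle, myofibroblasts and pericytes described here are expected to keep Hdac3; the labels do not report a measurement of this. In the widely used knock-in line the recombinase replaces coding sequence of Shh itself, and the labels do not say whether that line was used. Values are log2 probe set levels, so a difference of 1 is a doubling, and levels of different genes are not comparable with each other. In whole tissue, fewer cells of a type and less RNA per cell cannot be told apart. Hdac3 had a log2 change of -0.31 ± 0.07 (SE, limma adjusted p = 0.0203), from 10.81 ± 0.10 to 10.50 ± 0.11 (SD, n = 5 per group). Both leading components, holding 26.6% and 22.1% of the variance, separated lungs 4 and 5 from lungs 1 to 3 within each group, and the labels tie these numbers to no batch.

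Sequences upstream of the start site are shown for the genes that the results below turn on, from RefSeq's GRCm38.p6 promoters, each covering the 250 bases before the start, written 5′ to 3′ on the gene's strand. Of the 34 genes, 24 have an entry in that table. Positions count back from the base just before the start, which is -1. CArG boxes, searched on both strands (the pattern is its own reverse complement), were present with no letter off in 2 of the 24 genes, Srf and Myl9, against 1.47% of 32851 promoters in the table. With at most 1 letter off they were present in 9 of 24 (37.5%), against 18.6%; these are matches of letters, not measured binding. The first group holds Srf, its known targets Acta2 and Myl9, and the contractile genes with the smallest p values, Tpm1 and Cnn1, with CArG boxes of at most 1 letter off in capitals.
Srf, chr17:46556163-46556412, minus strand: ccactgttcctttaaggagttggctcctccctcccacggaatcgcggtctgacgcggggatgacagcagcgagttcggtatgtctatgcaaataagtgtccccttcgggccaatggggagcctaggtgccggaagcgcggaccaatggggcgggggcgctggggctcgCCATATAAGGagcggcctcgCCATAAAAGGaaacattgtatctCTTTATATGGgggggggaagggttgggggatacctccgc
Myl9, chr2:156775214-156775463, plus strand: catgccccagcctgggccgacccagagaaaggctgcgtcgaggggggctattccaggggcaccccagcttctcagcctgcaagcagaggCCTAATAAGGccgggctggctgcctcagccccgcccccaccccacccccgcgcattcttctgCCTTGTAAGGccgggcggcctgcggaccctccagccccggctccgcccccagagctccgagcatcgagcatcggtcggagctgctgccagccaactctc
Acta2, chr19:34255374-34255623, minus strand: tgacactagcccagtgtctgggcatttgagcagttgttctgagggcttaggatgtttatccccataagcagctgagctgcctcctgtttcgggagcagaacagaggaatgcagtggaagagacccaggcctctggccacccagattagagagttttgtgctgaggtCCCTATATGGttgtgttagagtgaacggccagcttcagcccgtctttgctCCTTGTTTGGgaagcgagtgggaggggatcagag
Tpm1, chr9:67049214-67049463, minus strand: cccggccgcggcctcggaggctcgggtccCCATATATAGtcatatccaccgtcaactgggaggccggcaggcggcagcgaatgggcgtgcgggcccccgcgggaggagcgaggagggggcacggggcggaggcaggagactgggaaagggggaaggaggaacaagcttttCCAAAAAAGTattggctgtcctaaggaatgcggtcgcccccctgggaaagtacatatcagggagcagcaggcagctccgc
Cnn1, chr9:22099003-22099252, plus strand: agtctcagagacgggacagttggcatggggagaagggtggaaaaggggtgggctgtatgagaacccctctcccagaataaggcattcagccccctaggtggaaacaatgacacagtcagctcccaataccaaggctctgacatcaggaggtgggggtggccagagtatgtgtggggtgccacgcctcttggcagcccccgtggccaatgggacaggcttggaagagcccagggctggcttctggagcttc
Srf carries 2 exact boxes, at -82 and -62, and Myl9 carries 1, at -161. Acta2 carries 2 boxes with 1 letter off, at -84 and -34, and Tpm1 carries 2, at -221 and -80. Cnn1 has none in this window.

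The hedgehog targets Hhip and Ptch1 are shown with their CG dinucleotides in capitals, in which both windows are rich.
Hhip, chr8:80058009-80058258, minus strand: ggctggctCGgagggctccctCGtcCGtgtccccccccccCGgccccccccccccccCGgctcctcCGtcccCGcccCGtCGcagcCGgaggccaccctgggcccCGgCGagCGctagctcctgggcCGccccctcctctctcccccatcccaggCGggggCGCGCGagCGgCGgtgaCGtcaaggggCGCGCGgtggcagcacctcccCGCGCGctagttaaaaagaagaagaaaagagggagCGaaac
Ptch1, chr13:63565736-63565985, minus strand: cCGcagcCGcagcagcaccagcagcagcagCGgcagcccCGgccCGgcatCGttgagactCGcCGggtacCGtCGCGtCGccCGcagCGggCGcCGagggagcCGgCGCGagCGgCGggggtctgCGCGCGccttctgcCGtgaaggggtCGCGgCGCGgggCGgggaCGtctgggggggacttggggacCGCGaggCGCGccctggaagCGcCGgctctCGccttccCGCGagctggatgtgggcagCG
Ptch1 holds 41 CG dinucleotides and Hhip 28 in these 250 bases, against 3 in Cnn1, a median of 6 over all promoters in the table and a 90th percentile of 25. The GLI motif GACCACCCA, searched on both strands, was in 0 of the 24 genes' windows and in 0.225% of all promoters.

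Of the 33 measured genes, 0 were called between knockout and control lungs by limma at an adjusted p under 0.05, where 3.12% of all genes were called. At an unadjusted p under 0.05 there were 4 (12.1%), namely Cnn1, Hhip, Tpm1 and Ndufa4l2, against 13.5% of all genes, so the share lies near the background. With the replicate number as a block, 1 of 33 was called (3.03%, against 4.72% of all genes), the fall of Cnn1, and 6 had an unadjusted p under 0.05 (18.2%, against 17.2%), with Ptch1 and Rgs5 added. With the sets of lungs 1 to 3 and 4 to 5 as a block, 2 were called (6.06%, against 5.08%), the falls of Hhip and Ptch1. These sets are named in no label and follow the separation of lungs seen in these same values.

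The log2 changes ran from -0.41 to 0.19. They lay below 0 in 26 of 33 genes (78.8%), against 48.0% of all genes, and their median was -0.05, against 0.00 for all genes. Among the other lists described below, the share below 0 ran from 16.7% (neuron and glia markers) to 81.5% (other smooth muscle and SRF target genes). It was 80.0% for other hedgehog pathway genes, 70.0% for fibroblast markers (median -0.07) and 73.3% for leukocyte markers (median -0.11). The 95% intervals were narrow enough to bound most changes: 23 of 33 lay wholly within 0.3 of 0 on the log2 scale and 32 within 0.5, Cnn1 being the exception. All 33 genes stood above the 20th percentile of all values (6.3) in every lung, and 27 above the median gene.

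**Figure D1:**
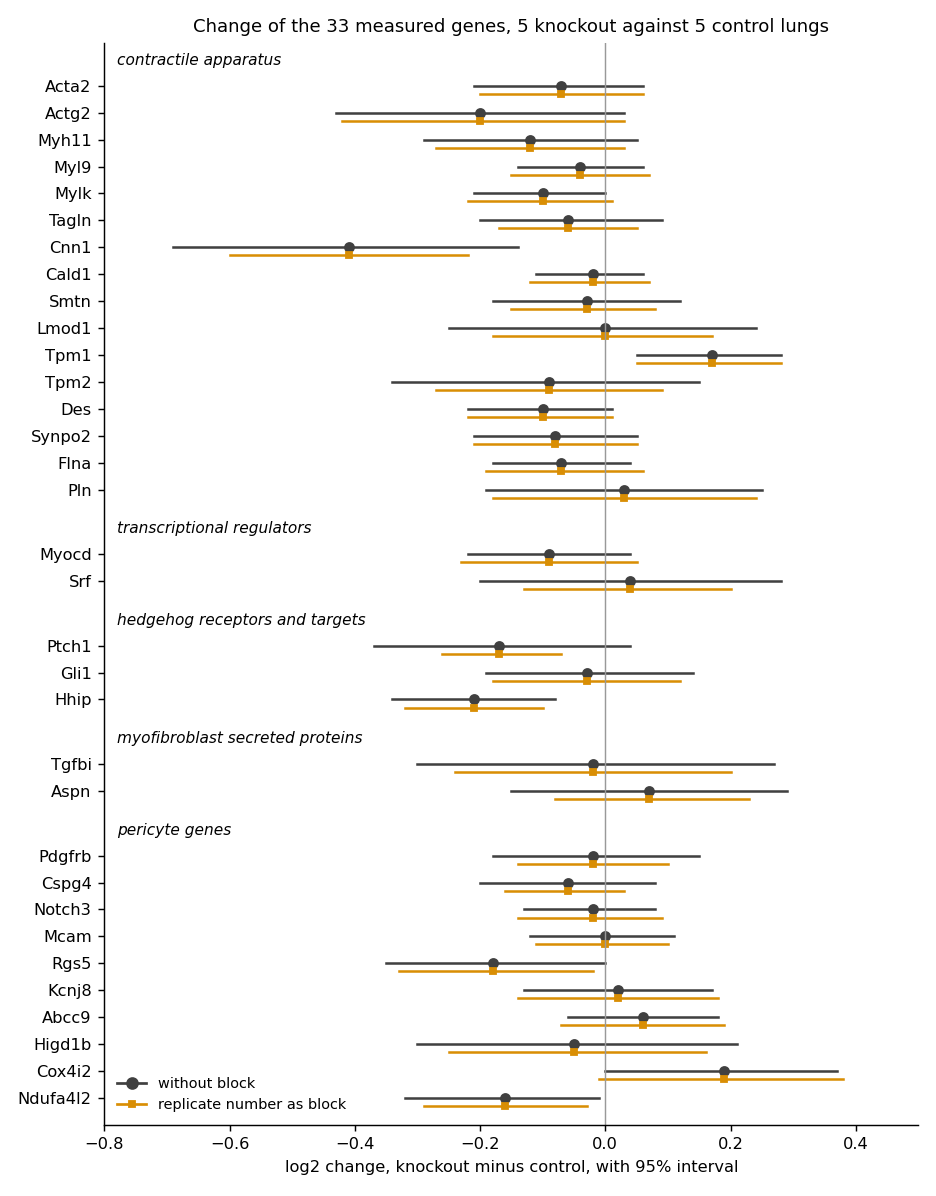
Log2 change of each of the 33 measured genes between 5 knockout and 5 control lungs (horizontal axis), grouped by role, with 95% intervals from limma without (dark circles) and with (orange squares) the replicate number as a block. The intervals of Cnn1, Hhip, Tpm1 and Ndufa4l2 leave 0 aside in both fits, and those of Ptch1 and Rgs5 only with the block; Cnn1 has the lowest value, -0.41.

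Contractile genes were measured in full, 16 of 16, and 14 of them had a change below 0, with a median of -0.07. Cnn1, whose product calponin binds actin and slows myosin, measured 7.64, 7.77, 7.80, 7.80 and 7.90 in controls 1 to 5. In knockouts 1 to 5 it measured 6.95, 7.33, 7.51, 7.25 and 7.80. Knockouts 1 to 4 lay below every control, while knockout 5 lay within the control range. Its means were 7.78 ± 0.09 in controls and 7.37 ± 0.32 in knockouts (SD, n = 5 in each), a log2 change of -0.41 ± 0.13 (SE), which is 75.1% of the control level with a 95% interval from 62.1% to 90.9%. The adjusted p of limma was 0.123 and, with the replicate block, 0.0275. Cnn1 was lower in the knockout in 5 of 5 same-numbered pairs, by 0.10 to 0.69. With the sets of lungs 1 to 3 and 4 to 5 as a block its adjusted p was 0.0736. Leaving out knockout 5 gave -0.52 with an adjusted p of 0.0132 (1 of 33 genes called, against 3.90% of all genes), and leaving out knockout 1 gave -0.31 with 0.191; the other omissions of 1 lung gave adjusted p values up to 0.239.

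Tpm1 went the other way. This tropomyosin gene, whose coiled coil lies along the actin filament, measured 9.61, 9.64, 9.59, 9.56 and 9.55 in controls 1 to 5, and 9.68, 9.91, 9.65, 9.76 and 9.77 in the knockouts. Every knockout lung lay above every control lung, and Tpm1 was the 1 gene of the 33 whose groups did not overlap, where 5.11% of all genes had this. Its log2 change was 0.17 ± 0.05 (SE, limma adjusted p = 0.144), or 112% of the control level (95% interval 104% to 122%). Tpm1 was also the 1 gene higher in 5 of 5 pairs (3.03%, against 8.70% of all genes), while 5 were lower in 5 of 5 (15.2%, against 9.05%): Cnn1, Ptch1, Hhip, Cspg4 and Ndufa4l2. Its relative Tpm2 had a change of -0.09 ± 0.11 (adjusted p = 0.817), with knockouts spread from 6.90 to 7.53 around controls from 7.13 to 7.36. The array has 1 probe set for Tpm1, and the splice forms that it reads are not stated in these sources.

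The defining actin and myosin genes of smooth muscle differed little. Acta2, the smooth muscle alpha-actin, measured 11.98, 11.89, 12.00, 11.80 and 11.83 in controls and 11.85, 11.87, 11.80, 11.67 and 11.95 in knockouts, in the order 1 to 5. The groups overlapped, with a log2 change of -0.07 ± 0.06 (adjusted p = 0.714) and a 95% interval from 86.7% to 105% of the control level. Myh11, the smooth muscle myosin heavy chain, measured 9.56, 9.72, 9.51, 9.51 and 9.47 in controls and 9.37, 9.55, 9.39, 9.23 and 9.63 in knockouts. Knockouts 1, 3 and 4 lay below all controls, and knockout 5 stood above all but control 2; the change was -0.12 ± 0.08 (adjusted p = 0.576). Tagln, which encodes the actin-binding transgelin, measured 9.70, 9.74, 9.77, 9.70 and 9.53 in controls and 9.52, 9.63, 9.75, 9.73 and 9.51 in knockouts. Control 5 lay beside the 2 lowest knockouts, and the change was -0.06 ± 0.07 (adjusted p = 0.799).

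Actg2, the gamma-actin best known from gut muscle, had a larger but more scattered difference of -0.20 ± 0.10 (adjusted p = 0.462). Its controls lay from 8.74 to 9.17, and knockouts 2, 3 and 4, from 8.48 to 8.71, were below them all, while knockout 5 measured 9.01. Mylk, the kinase that starts contraction by phosphorylating the regulatory light chain, had a change of -0.10 ± 0.05 (adjusted p = 0.384), with controls from 10.58 to 10.75 and knockouts from 10.52 to 10.62. Des, the muscle intermediate filament desmin, also had -0.10 ± 0.05 (adjusted p = 0.433), with controls from 8.88 to 9.03 and knockouts from 8.70 to 8.91. A further probe set that names Des together with another gene was not used. The light chain gene Myl9 (-0.04), caldesmon Cald1 (-0.02), smoothelin Smtn (-0.03), the actin-bundling Synpo2 (-0.08) and the actin crosslinker Flna (-0.07) all had adjusted p values from 0.645 to 0.913. Lmod1, a leiomodin that nucleates actin filaments, stood at 7.07 ± 0.26 in controls and 7.06 ± 0.14 in knockouts (SD, n = 5 per group). Pln, the phospholamban that restrains the calcium pump of the sarcoplasmic reticulum, had a change of 0.03 ± 0.10 (adjusted p = 0.952), with controls from 7.37 to 7.51, knockouts 1 to 4 from 7.38 to 7.66 and knockout 5 at 7.06.

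**Figure D2:**
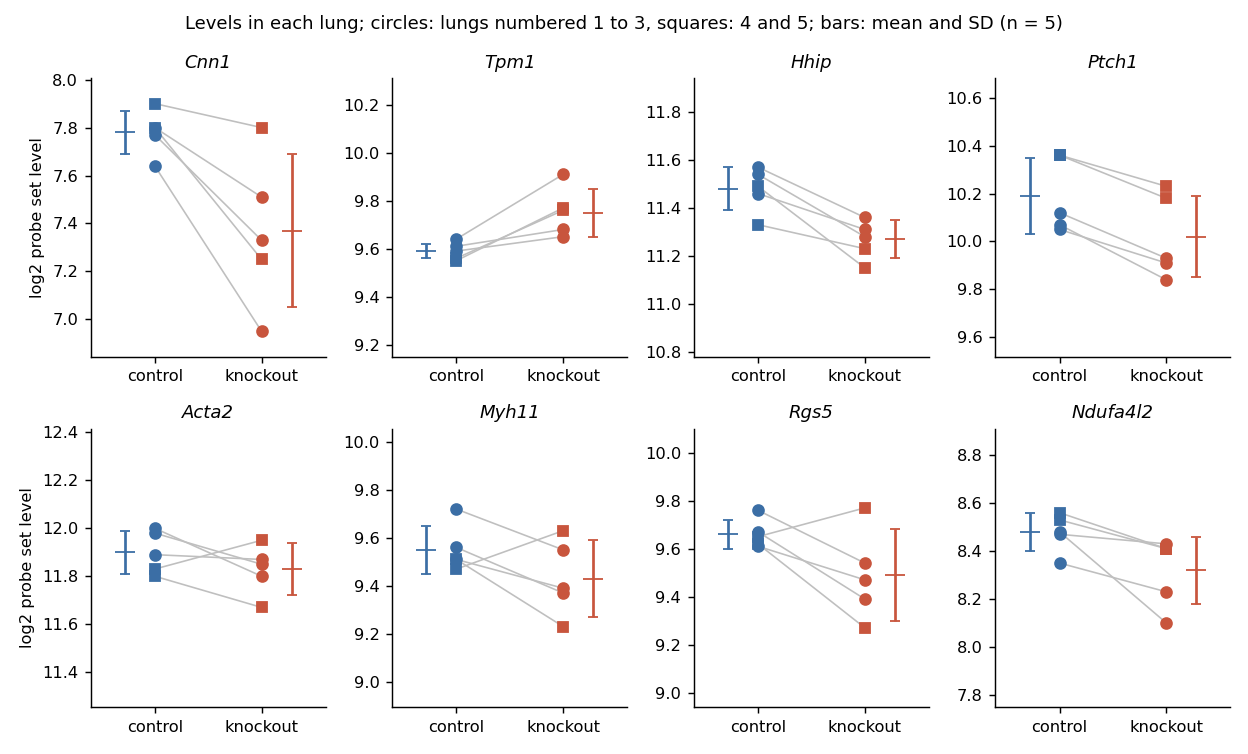
Log2 probe set level (vertical axis, the same span in each panel) of 8 genes in each of 5 control and 5 knockout lungs; grey lines join same-numbered lungs, circles are lungs 1 to 3, squares lungs 4 and 5, and bars give mean and SD (n = 5). Every line falls for Cnn1, Hhip, Ptch1 and Ndufa4l2 and every line rises for Tpm1, while in Acta2, Myh11 and Rgs5 the line of lung 5 rises against the others.

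Myocd and Srf, the regulators above the contractile genes, were not called. Myocd measured 7.95, 8.18, 7.96, 8.05 and 7.98 in controls 1 to 5 and 7.99, 7.92, 8.04, 7.83 and 7.88 in knockouts. Knockouts 2, 4 and 5 were below all controls, and the change was -0.09 ± 0.06 (adjusted p = 0.584). Srf measured 8.99, 9.29, 9.11, 8.99 and 8.97 in controls and 9.33, 9.39, 9.12, 8.91 and 8.80 in knockouts. Knockouts 1 and 2 were above and knockouts 4 and 5 below all controls, which gave a change of 0.04 ± 0.11 (adjusted p = 0.94) with a sign that differed between lungs 1 to 3 (0.15) and lungs 4 and 5 (-0.12).

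Of 27 measured genes in a list of other smooth muscle and SRF target genes, 0 rose and 1 fell by limma, where 1.58% of all genes fell. The changes lay below 0 in 22 of 27 (81.5%, against 48.0% of all genes), with a median of -0.08. The list's average difference from the control means lay between -0.03 and 0.03 in controls and between -0.13 and -0.04 in knockouts. Kcnma1, the large-conductance calcium-activated potassium channel of smooth muscle, was the fall, from 6.45 ± 0.12 to 5.99 ± 0.16 (SD, n = 5 per group), by 0.46 ± 0.08 on the log2 scale (adjusted p = 0.00795). It lies near the 20th percentile of all values (6.3), and with values floored there it was not called (-0.14, adjusted p = 0.257). With the replicate block 2 fell, where 2.44% of all genes did, the second being Ccn2, a matricellular protein gene that SRF and YAP drive, from 9.92 ± 0.22 to 9.57 ± 0.28 (-0.35 ± 0.13, adjusted p = 0.237, and 0.0435 with the block).

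Hedgehog receptors and targets had changes below 0 in 3 of 3 genes. Hhip, the secreted and membrane-bound hedgehog decoy that marks airway smooth muscle and myofibroblasts, measured 11.57, 11.46, 11.54, 11.49 and 11.33 in controls 1 to 5. In the knockouts it measured 11.36, 11.31, 11.28, 11.15 and 11.23. All knockouts but number 1 lay below every control, and control 5 was the low one of its group. Its means were 11.48 ± 0.09 in controls and 11.27 ± 0.08 in knockouts (SD, n = 5 in each), a log2 change of -0.21 ± 0.06 (SE), or 86.4% of the control level (95% interval 79.1% to 94.4%). The adjusted p was 0.0843, and 0.0533 with the replicate block. Hhip fell with the sets block (adjusted p = 0.0243) and with a trended, robust variance prior (0.0368). That prior called 1 of 33 genes, against 650 of all 17919 genes. Without control 5 Hhip also fell (-0.25, adjusted p = 0.041), with 1 of 33 genes called, against 2.39% of all genes. The change was -0.20 within lungs 1 to 3 and -0.22 within lungs 4 and 5.

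Ptch1, the hedgehog receptor and a target of its own pathway, measured 10.05, 10.12, 10.07, 10.36 and 10.36 in controls 1 to 5 and 9.91, 9.93, 9.84, 10.18 and 10.23 in knockouts. Lungs 4 and 5 stood above lungs 1 to 3 in both groups, and within each set every knockout lay below every control. The change was -0.17 ± 0.09 (SE, adjusted p = 0.49) and much the same within lungs 1 to 3 (-0.18) and within lungs 4 and 5 (-0.15). With the sets as a block Ptch1 fell (adjusted p = 0.0315), and with the replicate block its adjusted p was 0.0646. Same-numbered pairs differed by 0.13 to 0.22, lower in the knockout in 5 of 5.

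Gli1, the transcription factor that is the usual readout of the pathway, measured 7.18, 7.14, 7.25, 7.52 and 7.24 in controls and 7.24, 7.33, 7.06, 7.30 and 7.26 in knockouts. The groups overlapped, with a change of -0.03 ± 0.08 (adjusted p = 0.935) and a 95% interval from 87.5% to 110% of the control level, which holds the estimate for Ptch1 (89.0%) and not that for Hhip (86.4%); the difference between these genes was not tested.

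Of 15 other hedgehog pathway genes measured, 0 were called by limma without or with the block, against 3.12% and 4.72% of all genes. An unadjusted p under 0.05 was found for 1 without and 2 with the block, against 13.5% and 17.2% of all genes. By the rule for naming genes these are Disp1, which releases the ligand from its source cell (-0.20 ± 0.06, adjusted p = 0.142), and the coreceptor gene Cdon (-0.15 ± 0.08, adjusted p = 0.455). Shh, the ligand gene itself, had a change of -0.05 ± 0.09 (adjusted p = 0.891), and Foxf1, a mesenchymal target of the pathway, 0.00 ± 0.05 (adjusted p = 0.994); both were named after their values were seen.

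Of 21 measured signals and receptors that act on the lung mesenchyme, 0 rose and 1 fell (against 1.58% of all genes), and 3 fell with the replicate block (against 2.44%). Tgfb3, a TGF-beta ligand gene, was called in both fits: its controls lay from 9.66 to 9.88 and its knockouts from 9.52 to 9.58 (-0.23 ± 0.05, adjusted p = 0.0274). Fgf18, a growth factor gene of the fetal mesenchyme that myofibroblasts also express, measured 8.53 ± 0.23 in controls and 8.09 ± 0.26 in knockouts (adjusted p = 0.118, and 0.0222 with the block). Pdgfc, a PDGF ligand gene, measured 8.34 ± 0.11 and 8.08 ± 0.11 (adjusted p = 0.0631, and 0.023 with the block). Pdgfa and Pdgfra, the ligand and receptor that form alveolar myofibroblasts, had changes of -0.04 and 0.01 (adjusted p = 0.838 and 0.976), named after their values were seen.

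The 2 measured secreted proteins of myofibroblasts, Tgfbi and Aspn, were not called, and their knockouts were spread more widely than their controls. Tgfbi, a matrix protein induced by TGF-beta, stood between 11.19 and 11.66 in controls, between 11.10 and 11.47 in knockouts 1 to 4, and at 11.93 in knockout 5. Its change was -0.02 ± 0.13 (adjusted p = 0.979). Aspn, the small leucine-rich proteoglycan asporin, lay from 10.14 to 10.34 in controls 1, 2, 3 and 5 and from 9.90 to 10.47 in knockouts (0.07 ± 0.10, adjusted p = 0.839). Control 4 was the lowest control and knockout 4 the lowest knockout for both genes.

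Pericyte genes were measured in full, 10 of 10, with 7 changes below 0, 3 above and a median of -0.02. Pdgfrb, the receptor through which pericytes are recruited, measured 11.25, 11.27, 11.26, 11.18 and 11.12 in controls 1 to 5 and 11.31, 11.26, 11.37, 11.09 and 10.96 in knockouts. Knockouts 1 and 3 were above and knockouts 4 and 5 below all controls. The change was -0.02 ± 0.08 (adjusted p = 0.962), with a 95% interval from 88.0% to 111% of the control level.

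Cspg4, the surface proteoglycan by which pericytes are often identified, measured 8.69, 8.63, 8.60, 8.40 and 8.52 in controls and 8.62, 8.51, 8.56, 8.38 and 8.45 in knockouts. It was lower in 5 of 5 pairs, by 0.02 to 0.12, and the change of -0.06 ± 0.06 was not called (adjusted p = 0.76). Notch3, the Notch receptor of mural cells, measured 9.31, 9.39, 9.30, 9.44 and 9.26 in controls and 9.35, 9.38, 9.33, 9.23 and 9.28 in knockouts. Only knockout 4 was outside the control range, and the change was -0.02 ± 0.05 (adjusted p = 0.914). Mcam, an adhesion molecule shared with endothelium, measured 11.20 in both groups (SD 0.08 and 0.06, n = 5 per group).

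Rgs5 and Ndufa4l2 had the largest differences below 0 among pericyte genes. Rgs5, which shortens G protein signals in mural cells, measured 9.67, 9.61, 9.76, 9.62 and 9.65 in controls and 9.39, 9.47, 9.54, 9.27 and 9.77 in knockouts. Knockouts 1 to 4 lay below every control and knockout 5 above every control. The change was -0.18 ± 0.08 (adjusted p = 0.369), without knockout 5 it was -0.25 (adjusted p = 0.0507), and without knockout 4 it was -0.12 (0.557). Ndufa4l2, a mitochondrial protein gene that hypoxia induces, measured 8.48, 8.35, 8.47, 8.56 and 8.53 in controls and 8.10, 8.23, 8.43, 8.41 and 8.41 in knockouts. Knockouts 1 and 2 were below all controls, and the change was -0.16 ± 0.07 (adjusted p = 0.336). A second probe set annotated to Rgs5, low on the array at 5.56 in both groups, was not used; with the mean of both probe sets the change of Rgs5 was -0.09 (adjusted p = 0.669).

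Cox4i2, the lung form of a cytochrome oxidase subunit, had the largest difference above 0, 0.19 ± 0.09 (adjusted p = 0.381). Its controls lay from 9.30 to 9.33 except control 2 at 9.63, and its knockouts from 9.42 to 9.84. Kcnj8 and Abcc9, the pore and the regulatory subunit of the vascular ATP-sensitive potassium channel, had changes of 0.02 ± 0.07 and 0.06 ± 0.06 (adjusted p = 0.956 and 0.736). Both were higher within lungs 1 to 3 (0.14 and 0.15) and lower within lungs 4 and 5 (-0.17 and -0.08). Higd1b, a hypoxia-inducible domain family gene of pericytes, lay from 7.82 to 8.25 in controls and from 7.63 to 8.19 in knockouts (-0.05 ± 0.12, adjusted p = 0.933).

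Of 18 measured genes in a list of other pericyte genes, 0 rose and 1 fell, where 1.58% of all genes fell. This was Anpep, an aminopeptidase gene expressed by pericytes and also by many epithelia and myeloid cells. It measured 9.09, 9.09, 8.72, 9.15 and 8.67 in controls and 7.90, 8.17, 8.06, 7.95 and 7.73 in knockouts. The groups did not overlap, and Anpep fell by 0.98 ± 0.11 on the log2 scale (SE, adjusted p = 0.000326). The other 17 had smaller differences, and which cells of the lung carried the Anpep signal was not tested.

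The lungs of 1 group did not vary alike across these genes. Knockout 4 was the lowest of the 5 knockouts in 18 of 33 genes (54.5%), against 22.6% of all genes, and in 8 of the 16 contractile and 6 of the 10 pericyte genes. Knockout 3 was the highest in 10 of 33 genes, against 2752 of all 17919 genes, among them 4 of the 16 contractile and 4 of the 10 pericyte genes. Knockout 5 was also the highest in 10 of 33 genes (30.3%), near the 27.5% of all genes. These held 7 of the 16 contractile genes and 1 of the 10 pericyte genes. Acta2, Actg2, Myh11, Cnn1, Tpm2, Tgfbi and Rgs5 were among the genes highest in knockout 5, while Pln, Srf and Pdgfrb were lowest there. Lungs 4 and 5 separated fully from lungs 1 to 3 in both groups for 6 genes (18.2%, against 13.7% of all genes): Ptch1 was higher in lungs 4 and 5, and Smtn, Srf, Pdgfrb, Cspg4 and Mcam were lower.

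**Figure D3:**
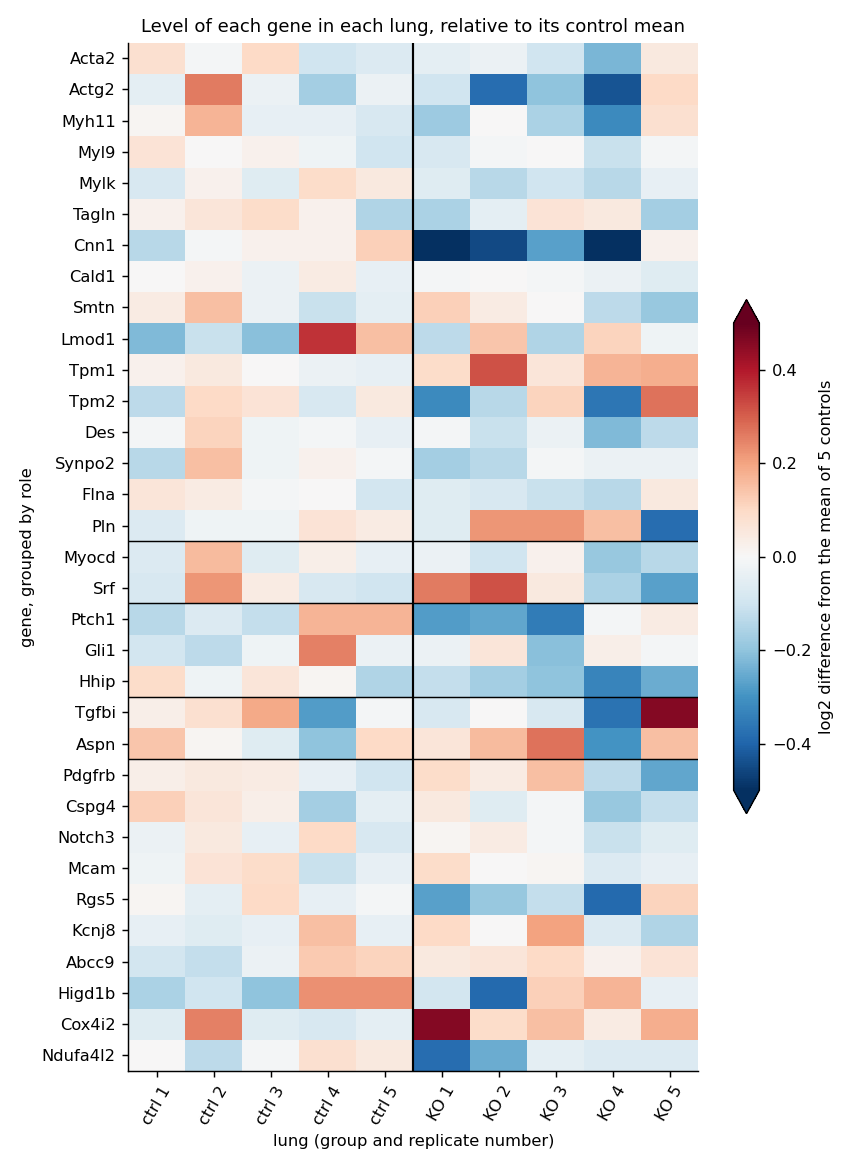
Log2 difference of each of 33 genes (rows, grouped by role) in each of 10 lungs (columns, control 1 to 5 then knockout 1 to 5) from that gene's mean over the 5 controls; red is higher and blue lower, and colours saturate beyond 0.5. Cnn1 is blue in knockouts 1 to 4 and near the control mean in knockout 5, Hhip is blue and Tpm1 red in all 5 knockouts, and knockout 4 is the lowest knockout in 18 of 33 genes.

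Averaged over the 16 contractile genes, the difference from the control means lay between -0.03 and 0.06 in the controls and at -0.13, -0.05, -0.04, -0.14 and -0.02 in knockouts 1 to 5. Over the 10 pericyte genes it lay between -0.02 and 0.03 in controls and between -0.08 and 0.06 in knockouts. The groups overlapped in both. These averages carry no test, because the genes were chosen with results of these lungs known.

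Marker lists of other cell types were set beside these averages. The 20 endothelial markers lay between -0.05 and 0.07 in controls and between -0.09 and 0.04 in knockouts. The 20 fibroblast markers lay between -0.07 and 0.07 in controls and between -0.14 and 0.03 in knockouts. In each list 0 of 20 were called, where 3.12% of all genes were. With the replicate block Car4 and Pi16, 1 in each list, rose, where 4.72% of all genes were called. The 20 cardiac muscle markers, which mouse lungs also express in the sleeves of the pulmonary veins, lay between -0.05 and 0.10 in controls and between -0.14 and 0.12 in knockouts, with 0 called and Myh7 and Ryr2 the closest (adjusted p = 0.27 and 0.514). The cardiac average stood at -0.14, 0.10, 0.12, 0.03 and -0.10 in knockouts 1 to 5. Of the genes that heart muscle shares, Pln was lowest in knockout 5 and Des in knockout 4. A relation between these 2 genes and the cardiac markers was not tested. The 12 measured skeletal muscle markers had 0 calls, with Myod1 and Atp2a1 the closest (adjusted p = 0.267 and 0.632), and averages from -0.12 to 0.06 over all lungs.

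The 15 leukocyte markers lay between -0.02 and 0.04 in controls and between -0.23 and -0.04 in knockouts, with 0 called. With the block Laptm5 fell, where 2.44% of all genes did. The 20 epithelial markers lay between -0.04 and 0.06 in controls and between 0.01 and 0.18 in knockouts, with knockout 4 the highest. Their changes lay below 0 in 9 and above 0 in 11, from -1.06 to 1.34, with a median of 0.02. Krt18, Krt8 and Cldn3 rose and Scgb3a2 fell, where 3.12% of all genes were called, and with the block Sox2 fell too. Of the 9 mesothelial markers 6 had changes below 0 and 3 above, with a median of -0.02. Their averages overlapped, from -0.15 to 0.09 in controls and from -0.02 to 0.16 in knockouts. Krt19 and Msln rose, where 276 of 17919 genes did, with the added fall of Upk3b under the block. The 6 measured neuron and glia markers lay between -0.04 and 0.03 in controls and between 0.05 and 0.16 in knockouts. Of these 6, 5 had mean levels below the 20th percentile of all values (6.3). S100b was called at means of 5.50 and 5.69, also below 6.3, and not called with the block (adjusted p = 0.0825). The part of these differences in the values of the muscle and pericyte genes was not tested.

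**Figure D4:**
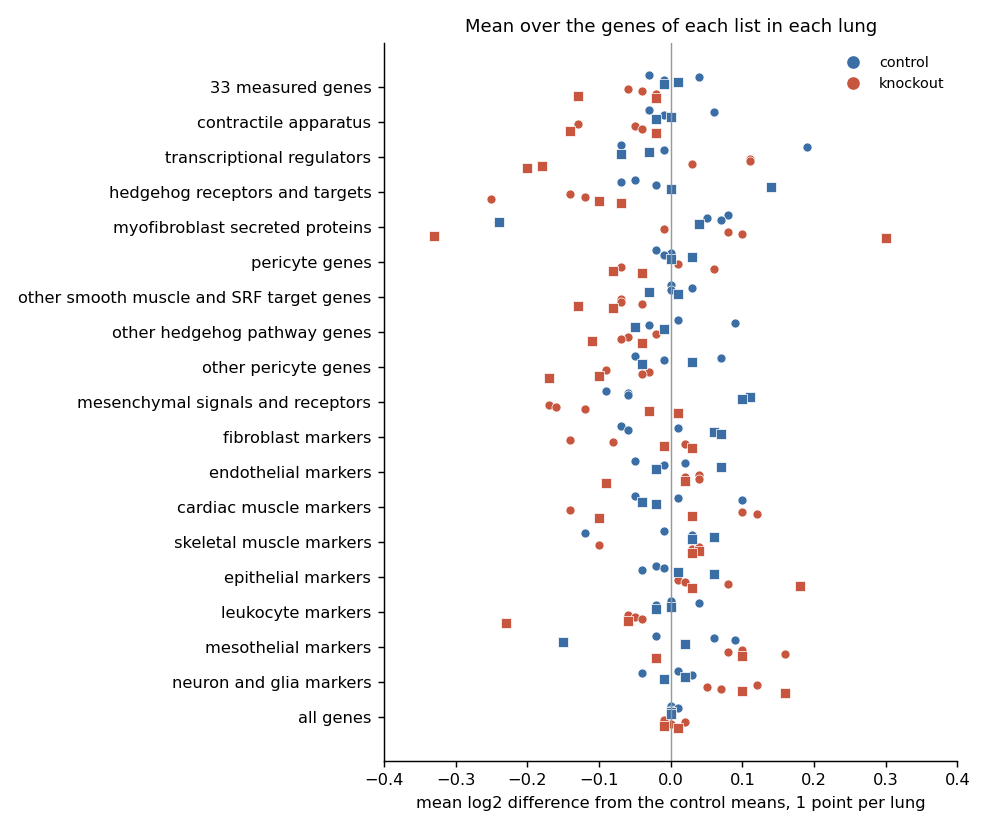
Mean log2 difference from the control means over the genes of each list (rows), 1 point per lung (blue control, red knockout; circles lungs 1 to 3, squares lungs 4 and 5), on a horizontal axis in log2 units. The contractile points of the knockouts lie from -0.14 to -0.02 against -0.03 to 0.06 in controls, pericyte points overlap, and the groups separate for the other smooth muscle and SRF target genes, leukocyte and neuron and glia lists. In the last list, 5 of 6 genes have means below 6.3, the 20th percentile of all values.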

How the data were processed

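Whole-lung RNA of 5 control and 5 knockout embryos was measured on 1 array each. First strands were made from 100 ng of total RNA with a poly(T) oligomer, then amplified by transcription in vitro, per the labels' protocols. The deposited values are log2 levels per probe set, made by the authors; the submitters' processing notes name oligo, RMA and limma, and no genome build for the probe sets is stated in these sources.

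Of 24888 probe sets, 18922 had 1 gene symbol, 1343 several and 4623 none in the platform annotation; 18790 were found in the RefSeq GRCm38.p6 table through their gene ID. Each of 17919 genes was represented by its brightest probe set on average over 10 lungs. Groups were compared with limma 3.58.1 in R 4.3.3 (lmFit, eBayes, two-sided, Benjamini-Hochberg adjustment over all genes, threshold 0.05); all adjusted p values are from it. The script was tested on simulated data. Arrays carry no read depth, and their number limits the precision; the median SE of a log2 change was 0.066 over all genes. The labels call the lungs biological replicates.

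The 34 genes and the lists were chosen with earlier results of these data known. Values in every lung are given for genes with an unadjusted p under 0.05 in the fit without or with the replicate block and for 10 defining genes. Of other lists, called genes or the 2 with the smallest p are named.

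Both groups carry replicate numbers 1 to 5. Deviations of same-numbered lungs from their group means correlated at 0.154 to 0.485 in all 5 pairs, against a median of -0.0832 between different numbers (highest 0.33), so the numbers were taken to pair the lungs; this rests on the data, and the sets of lungs 1 to 3 and 4 to 5 could also raise these values. Blocked values are given where they change a call. Alternatives covered blocks, subsets, low values, probe set choice, normalization and the variance prior.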

Additional observations from a re-analysis of the deposited data

Results flagged for a closer look

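In 3 of 68 groups of 5 lungs examined (33 genes and Hdac3, in each group), 1 lung lay far from the other 4, with a gap to its neighbour above 0.71 of the group's range (Dixon's 95% critical value); chance flags about 1 group in 20. Cox4i2 measured 9.63 in control 2, where the next control stood at 9.33; without that lung its change was 0.25 (limma adjusted p = 0.157). Kcnj8 measured 9.32 in control 4, against 9.13 in the next control, and without it the change was 0.06 (adjusted p = 0.823). Des measured 9.03 in control 2, against 8.91 in the next, and without it the change was -0.08 (adjusted p = 0.59). None of the 3 genes was called with or without that lung.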

How the results depend on the processing

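The count of 0 called genes among the 33 became 1 with the replicate block (Cnn1) and with a trended, robust variance prior (Hhip, adjusted p = 0.0368), and 2 with the sets block (Hhip and Ptch1); over omissions of 1 lung it was 0 to 1. The replicate block changed the call of no other gene of the 33. Over all genes 559 were called, 846 with the replicate block, 910 with the sets block and 650 with the trended, robust prior. Only lungs 4 and 5 gave 2, and omissions of 1 lung gave 393 to 699. The median change of -0.05 was -0.09 with only lungs 4 and 5. Signs turned for small changes that were not called. With only lungs 1 to 3 these were Lmod1 (0.13), Smtn (0.00), Gli1 (0.02), Pdgfrb (0.05), Notch3 (0.02) and Higd1b (0.03). With only lungs 4 and 5 they were Tagln (0.01), Pln (-0.17), Srf (-0.12), Tgfbi (0.19), Aspn (-0.02), Mcam (0.02), Kcnj8 (-0.17) and Abcc9 (-0.08). Without 1 lung, changes ran from -0.14 to 0.07 for Tgfbi, -0.06 to 0.03 for Gli1, -0.10 to 0.04 for Higd1b, -0.03 to 0.12 for Srf, -0.02 to 0.13 for Pln, -0.03 to 0.06 for Kcnj8, -0.06 to 0.04 for Pdgfrb, -0.07 to 0.01 for Smtn, -0.06 to 0.09 for Lmod1, -0.03 to 0.02 for Mcam and -0.04 to 0.00 for Notch3. The causes were not tested. The other settings (genes above the median level, floored values, every probe set, mean of probe sets, quantile normalization, median centring and each set of lungs alone) called 0 of the genes they held.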
